A study of Mus musculus with 9 samples.

Results

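Slfn2, Slfn5, Slfn8 and Slfn9 are Schlafen genes of a cluster near Ccl5 on mouse chromosome 11, and they were chosen by symbol as 4 of the 36410 genes in a table of RNA-seq counts. The table came from a study of Huntington disease, which is caused by an expanded repeat in the huntingtin gene Htt, and poly(A) RNA was sequenced from 3 immortalized striatal cell lines derived from mouse embryos of strain C57/BL6. Control cells (STHdhQ7/Q7) had 7 repeats in Htt exon 1 on both alleles. HD-het cells (STHdhQ7/Q111) had 7 repeats on 1 allele and 111 on the other, and HD-homo cells (STHdhQ111/Q111) had 111 repeats on both. The paper calls the lines knock-in models and gives the embryos of the control line as wild type. Each line had 3 libraries and the labels named no treatment. Because each genotype was represented by 1 line, genotype and line cannot be told apart. The labels did not say whether replicates were separate cultures, so every p-value measures only the spread between these libraries.

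The total counts per library were 32280309, 33602679 and 29507665 in the control libraries, 35978570, 32816147 and 33935537 in those of HD-het and 32399643, 41197931 and 33580623 in those of HD-homo. Levels are given as counts per 1000000 (CPM) of the reads on tested genes after TMM scaling, in the order of replicates 1 to 3. Htt itself was counted at 100 ± 6.0 CPM in control cells, 62.3 ± 1.5 CPM in HD-het cells and 20.2 ± 1.29 CPM in HD-homo cells (mean ± SD, n = 3 each, as for all means below).

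Schlafen proteins share a core domain that binds and in some members cuts RNA, and the longer members add a region related to helicases. Many Schlafen genes are switched on by type I interferon, the signal that cells release and answer when they sense foreign nucleic acid, and several family members restrict viruses or slow protein synthesis. The family was named, from the German word for sleep, for its effect on the growth of mouse T cells, and Slfn2 is needed to keep resting T cells quiescent.

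On build GRCm38, the GENCODE annotation places Slfn5 at chr11:82951349-82964840 on the plus strand, Slfn9 at chr11:82978390-82991830 and Slfn8 at chr11:83002158-83020810 on the minus strand, and Slfn2 at chr11:83065112-83070678 on the plus strand. The pseudogene Slfn10-ps lies between Slfn8 and Slfn2 at chr11:83028130-83040042 on the minus strand. Slfn8 and Slfn9 have coding lengths of 2730 bases each, Slfn5 of 2652 bases and Slfn2, a short member without the helicase-like region, of 1134 bases. Slfn8 and Slfn9 were identical at 92.7% of 2730 aligned coding bases, and the Slfn10-ps transcript was identical to Slfn8 at 92.1% and to Slfn9 at 91.6% of aligned bases. Slfn5 was identical to Slfn8 and to Slfn9 at 64.4% of aligned coding bases.

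The bases before the start sites of Slfn9, Slfn8 and Slfn2 are printed because these 3 members were higher together in HD-homo cells. RefSeq promoters (build GRCm38.p6) were found for all 4 members, and each printed run holds the 250 bases upstream of the start, 5′ to 3′ on the gene's strand. Capitals mark the core of the interferon-stimulated response element, searched on both strands as GAAANNGAAA.
Slfn9: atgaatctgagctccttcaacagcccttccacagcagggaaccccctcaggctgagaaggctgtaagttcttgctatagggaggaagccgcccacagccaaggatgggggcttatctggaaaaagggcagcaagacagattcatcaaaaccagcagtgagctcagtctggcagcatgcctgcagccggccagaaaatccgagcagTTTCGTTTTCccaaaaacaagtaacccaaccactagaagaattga
Slfn8: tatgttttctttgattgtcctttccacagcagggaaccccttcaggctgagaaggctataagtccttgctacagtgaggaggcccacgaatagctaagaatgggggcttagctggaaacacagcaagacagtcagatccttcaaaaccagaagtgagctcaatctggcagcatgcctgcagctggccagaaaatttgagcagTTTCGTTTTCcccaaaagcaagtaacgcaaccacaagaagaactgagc
Slfn2: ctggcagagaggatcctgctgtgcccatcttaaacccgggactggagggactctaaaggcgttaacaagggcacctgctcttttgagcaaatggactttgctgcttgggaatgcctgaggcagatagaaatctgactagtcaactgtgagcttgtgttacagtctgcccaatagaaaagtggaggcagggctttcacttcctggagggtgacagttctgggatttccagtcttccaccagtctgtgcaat
The runs come from chr11:82991831-82992080 (minus strand) for Slfn9, chr11:83020811-83021060 (minus strand) for Slfn8 and chr11:83064862-83065111 (plus strand) for Slfn2. Slfn9 and Slfn8 each held 1 match with the same letters, TTTCGTTTTC, first base at -45 in Slfn9 and at -48 in Slfn8. The upstream bases of Slfn8 and Slfn9 were identical at 85.1% of 242 aligned bases. The Slfn2 window, which ran from 250 bases before to 50 after the start, held no match. The Slfn5 window held 1 at -155 from the RefSeq start, but that window lies inside the GENCODE span of the gene and overlaps an exon of another annotated Slfn5 transcript, so its bases are not printed as upstream sequence. Of all 32851 promoters of this length, 3.44% held the core. The STAT site, searched on both strands as TTCNNNGAA, was absent from the windows of all 4 members and present in 8.3% of all promoters. No core match therefore overlapped a STAT site. A match describes letters and is not evidence of binding.

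In HD-homo cells, RNA from Slfn9, Slfn8 and Slfn2 was higher than in control cells and higher than in HD-het cells, while Slfn5 passed the test in neither comparison. A gene was called at an adjusted p under 0.05 by edgeR's quasi-likelihood F-test, Benjamini-Hochberg adjusted over the 13508 tested genes. The comparison of HD-homo with control cells asks how mRNA differs when both alleles are expanded, and it called 3 of the 4 members, all higher, where 58.6% of tested genes were called in either direction and 29.6% were called higher. The comparison of HD-homo with HD-het cells, which differ in 1 expanded allele, also called 3 of the 4 members higher, where 71.6% of tested genes were called and 36.0% were called higher. Between HD-het and control cells edgeR called 0 of the 4 members, with 0 at an unadjusted p under 0.05 and 0 called by DESeq2, where 65.1% of tested genes were called and 33.8% were called higher. The comparisons share libraries, so their values are given side by side and are not independent. Slfn2 passed the filter on low counts only through its HD-homo libraries and had to differ, so the number of members called supports nothing about the family. More cells with a transcript and more RNA per cell cannot be told apart in bulk RNA.

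**Figure D1:**
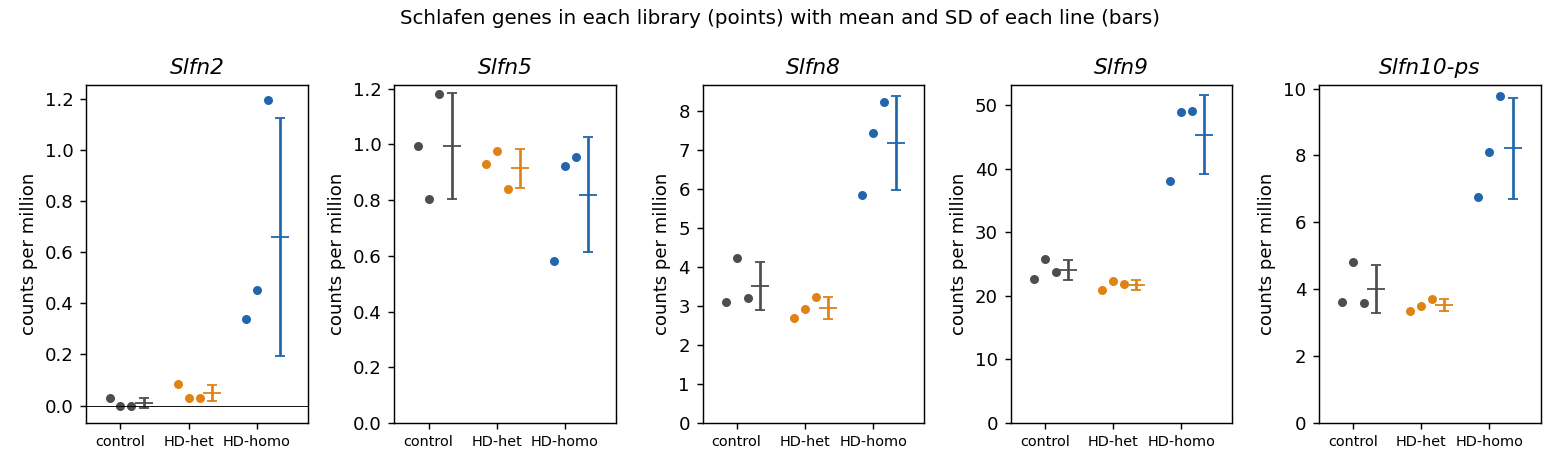
Level in CPM of the 4 members and Slfn10-ps in each library (points, replicates 1 to 3 from left to right) with the mean and SD of each line (bars), each panel on its own linear scale. The HD-homo points of Slfn2, Slfn8, Slfn9 and Slfn10-ps lie above every control and HD-het point, and the Slfn5 points of the 3 lines overlap.

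Slfn9, a long member with the helicase-like region, was counted at 22.7, 25.8 and 23.7 CPM in the control libraries, at 20.8, 22.3 and 21.8 CPM in those of HD-het and at 38.1, 48.9 and 49.0 CPM in those of HD-homo. The HD-homo libraries stood above all other libraries without overlap, replicate 1 being the lowest of them, and the HD-het libraries lay just under the control libraries, also without overlap. The mean was 45.4 ± 6.28 CPM in HD-homo cells against 24.1 ± 1.60 CPM in control cells, a 1.88-fold difference (log2 0.91, 95% interval 0.695 to 1.13), higher in 3 of 3 libraries (adjusted p = 1.3e-05, edgeR's quasi-likelihood F-test, Benjamini-Hochberg adjusted). Against the HD-het mean of 21.7 ± 0.766 CPM, the HD-homo mean was 2.09-fold higher (log2 1.07, 95% interval 0.847 to 1.29; adjusted p = 2.3e-06, edgeR's quasi-likelihood F-test, Benjamini-Hochberg adjusted). The lower HD-het level did not pass the test against control cells, at log2 -0.15 with a 95% interval of -0.375 to 0.0685 (adjusted p = 0.2, edgeR's quasi-likelihood F-test, Benjamini-Hochberg adjusted), which does not show that the levels were equal. This log2 value ran from -0.1953 to -0.1011 when 1 library was left out.

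Slfn8, the closest relative of Slfn9 in the cluster and another long member, was counted at 3.11, 4.22 and 3.21 CPM in the control libraries, at 2.68, 2.93 and 3.23 CPM in those of HD-het and at 5.86, 7.44 and 8.23 CPM in those of HD-homo. As for Slfn9, the HD-homo libraries were the highest without overlap and replicate 1 was the lowest of them, but the control and HD-het libraries overlapped. The HD-homo mean of 7.17 ± 1.21 CPM was 2.04-fold the control mean of 3.52 ± 0.615 CPM (log2 1.03, 95% interval 0.666 to 1.39), higher in 3 of 3 libraries (adjusted p = 0.00026, edgeR's quasi-likelihood F-test, Benjamini-Hochberg adjusted). It was 2.43-fold the HD-het mean of 2.95 ± 0.278 CPM (log2 1.28, 95% interval 0.92 to 1.65; adjusted p = 3.1e-05, edgeR's quasi-likelihood F-test, Benjamini-Hochberg adjusted). HD-het against control cells gave log2 -0.26 with a 95% interval of -0.642 to 0.126 and did not pass (adjusted p = 0.21, edgeR's quasi-likelihood F-test, Benjamini-Hochberg adjusted). This value ran from -0.3405 to -0.1034 when 1 library was left out.

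Slfn10-ps, annotated as a transcribed pseudogene and not one of the 4 members, had the same order of lines. It was counted at 3.61, 4.82 and 3.58 CPM in the control libraries, at 3.36, 3.51 and 3.71 CPM in those of HD-het and at 6.74, 8.10 and 9.78 CPM in those of HD-homo. The HD-homo libraries were again the highest without overlap, and the other libraries overlapped. The HD-homo mean was 2.05-fold the control mean (log2 1.03, 95% interval 0.678 to 1.39; adjusted p = 0.00022, edgeR's quasi-likelihood F-test, Benjamini-Hochberg adjusted). It was 2.33-fold the HD-het mean (log2 1.22, 95% interval 0.862 to 1.58), and HD-het against control cells gave log2 -0.19 with an interval of -0.562 to 0.188, not called. The value for HD-het against control cells ran from -0.2602 to -0.03078 when 1 library was left out.

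Reads can be assigned to the wrong gene where genes share sequence. Of the 50-base words in the exons of Slfn8, 14.6% also occurred in another gene, against 11.5% for Slfn9 and 19.7% for Slfn10-ps, nearly all of them shared within the family. The share was 4.27% for Slfn2, within the family, and 3.37% for Slfn5, whose 213 shared words all lay in genes outside the family. Slfn8 took 12.05%, 14.05% and 11.92% of the summed Slfn8 and Slfn9 counts in the control libraries, 11.39%, 11.58% and 12.90% in those of HD-het and 13.32%, 13.19% and 14.38% in those of HD-homo. The HD-homo shares overlapped those of control cells and lay above those of HD-het cells. The mean share differed by 0.958 percentage points between HD-homo and control cells (exact 2-sided permutation p = 0.3, adjusted over the 3 pairs of lines 0.45) and by -0.713 points between HD-het and control cells (exact p = 0.5, adjusted 0.5). It differed by 1.67 points between HD-homo and HD-het cells (exact p = 0.1, the smallest that 3 against 3 libraries can give, adjusted 0.3). Single libraries moved these differences. Between HD-homo and control cells the difference was 1.65 points without control replicate 2, 0.582 without control replicate 3 and 0.585 without HD-homo replicate 3. Between HD-het and control cells it was -0.0258 points without control replicate 2, -1.09 without control replicate 3, -0.429 without HD-het replicate 1 and -1.19 without HD-het replicate 3. Between HD-homo and HD-het cells it ran from 1.3 to 2.14 points. How far misassigned reads enter the counts of either gene was not tested.

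**Figure D2:**
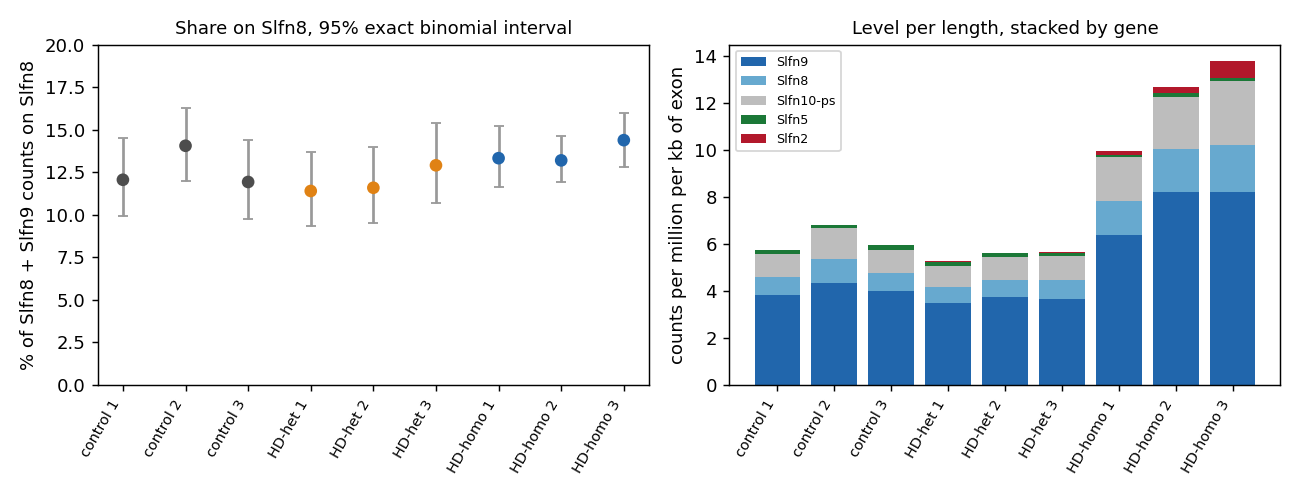
Left, percentage of summed Slfn8 and Slfn9 counts that fell on Slfn8 in each library, with its 95% exact binomial interval for counting error; right, level per length in CPM per kb of exon, stacked by gene. The share stays between 11.39% and 14.38% in all 9 libraries while the stacked level of the HD-homo libraries stands above the rest.

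Slfn2, the short member that keeps T cells quiescent, was at the edge of detection outside HD-homo cells. It had 1, 0 and 0 counts in the control libraries, 3, 1 and 1 counts in those of HD-het and 11, 19 and 40 counts in those of HD-homo, where the levels were 0.337, 0.450 and 1.19 CPM. Each HD-homo library was above every other library, and replicate 3 alone held 40 of the 70 HD-homo counts. The ratio of the summed counts, scaled for depth, was 61.6 against control cells, with a counting interval of 10.7 to 2470, and 13.1 against HD-het cells, with a counting interval of 5.37 to 41.7. The fitted log2 difference was 5.53 against control cells (95% interval 3.49 to 7.57; adjusted p = 0.00037, edgeR's quasi-likelihood F-test, Benjamini-Hochberg adjusted) and depends on the prior count added to near-empty groups, being 3.36 with a prior count of 2. In HD-homo against HD-het cells it was 3.63 (95% interval 2.1 to 5.17; adjusted p = 0.00064, edgeR's quasi-likelihood F-test, Benjamini-Hochberg adjusted).

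Because Slfn2 passed the filter only through its HD-homo libraries, its p-values and their persistence when a library is left out are given as a description and support nothing. Single libraries moved the fitted size of the Slfn2 difference. Against control cells it was 7.49 without control replicate 1, which held the only control count, and 4.83 without HD-homo replicate 3. Against HD-het cells it was 4.27 without HD-het replicate 1 and 2.93 without HD-homo replicate 3. Between HD-het and control cells both groups were at or under 3 counts per library, so no fold is given, and the fitted log2 difference of 1.90 had a 95% interval of -1.59 to 5.39 (adjusted p = 0.31, edgeR's quasi-likelihood F-test, Benjamini-Hochberg adjusted). It ran from 1.258 without HD-het replicate 1 to 3.85 without control replicate 1 and was 0.6381 with a prior count of 2. A difference between those 2 lines was not detectable at this depth.

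Slfn5, a long member that in other cells is induced by interferon, was counted at 0.995, 0.803 and 1.18 CPM in the control libraries, at 0.931, 0.975 and 0.839 CPM in those of HD-het and at 0.582, 0.923 and 0.954 CPM in those of HD-homo. The 3 lines overlapped, and the lowest library was HD-homo replicate 1, with 19 counts against 27 to 39 in the other libraries. HD-homo against control cells gave log2 -0.26 with a 95% interval of -0.783 to 0.263 (adjusted p = 0.37, edgeR's quasi-likelihood F-test, Benjamini-Hochberg adjusted). HD-het against control cells gave log2 -0.11 (95% interval -0.633 to 0.407; adjusted p = 0.69, edgeR's quasi-likelihood F-test, Benjamini-Hochberg adjusted), and HD-homo against HD-het cells gave log2 -0.15 (95% interval -0.671 to 0.376; adjusted p = 0.59, edgeR's quasi-likelihood F-test, Benjamini-Hochberg adjusted). The interval against control cells lies below the 95% intervals of Slfn8 and Slfn9 in the same comparison, though the difference between the genes was not itself tested. Leaving out 1 library moved the value against control cells to -0.07677 without HD-homo replicate 1, -0.1219 without control replicate 3 and -0.3968 without control replicate 2. It turned the sign in the other 2 comparisons: HD-het against control cells gave log2 0.03 without control replicate 3, and HD-homo against HD-het cells gave log2 0.04 without HD-homo replicate 1.

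**Figure D3:**
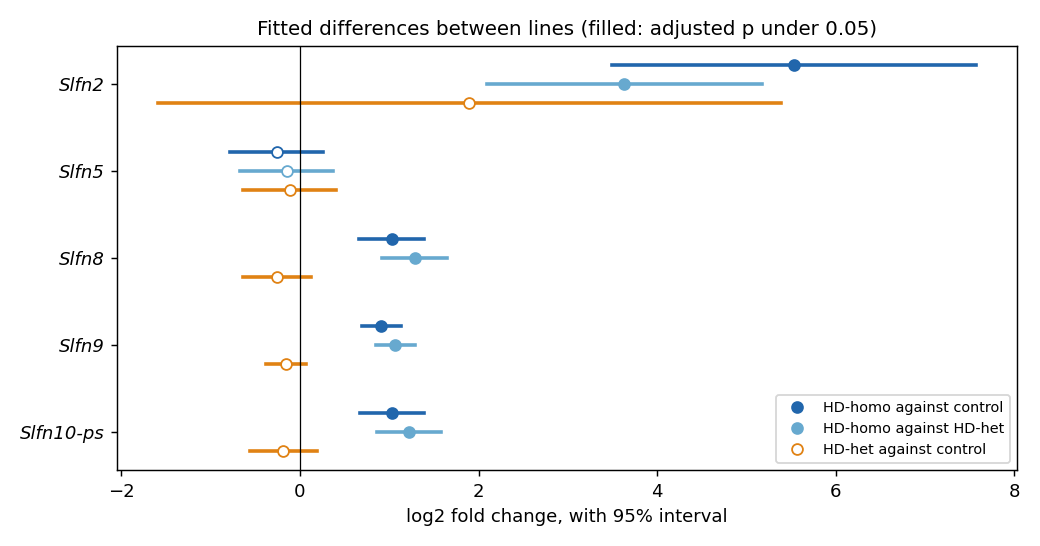
Fitted log2 difference between lines for the 4 members and Slfn10-ps, with 95% intervals; filled points have an adjusted p under 0.05. In both comparisons of HD-homo cells Slfn2, Slfn8, Slfn9 and Slfn10-ps are filled and lie above 0, and in HD-het against control cells every interval spans 0.

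The table listed 11 Schlafen entries, of which 5 passed the filter. Slfn1 and the antisense transcript Slfn5os had 0 counts in all libraries, Slfn14 had 2 counts over the 9 libraries, Slfn4 had 5, Slfn3 had 8, and Slfnl1, a related gene on chromosome 4, had 10. Of the 8 counts of Slfn3, 5 fell in HD-homo cells, as did 4 of the 5 counts of Slfn4 and 7 of the 10 of Slfnl1. The 2 counts of Slfn14 both fell in HD-het cells. At 3 counts per library the floor corresponds to 0.071 to 0.101 CPM, and intervals and floors cover counting error only.

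Divided by exon length, the levels in control cells ran in the order Slfn9 (4.04 ± 0.268 CPM per kb), Slfn8 (0.859 ± 0.15), Slfn5 (0.157 ± 0.0301) and Slfn2 (0.00623 ± 0.0108). No library of one member overlapped those of the next in this order. In HD-homo cells Slfn9 stood at 7.6 ± 1.05, Slfn8 at 1.75 ± 0.296, Slfn2 at 0.397 ± 0.279 and Slfn5 at 0.13 ± 0.0326 CPM per kb. Per length the lowest members thus changed places: Slfn2 was at 0.203, 0.270 and 0.717 CPM per kb in the HD-homo libraries and Slfn5 at 0.0921, 0.146 and 0.151, without overlap. The length was that of all annotated exons, 1.664 kb for Slfn2 and 6.326 kb for Slfn5. Before this division Slfn2 (0.66 CPM) stayed under Slfn5 (0.82 CPM) in HD-homo cells, with overlapping libraries. Slfn2 passed the filter only through its HD-homo libraries, so its place is given as a description. Slfn9 made up 79.8% of the members' summed level per length in control, 80.3% in HD-het and 77.1% in HD-homo cells.

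The region within 0.5 Mb of the cluster lists 35 other genes, and 15 of them were tested. In HD-homo against control cells 6 were higher, 4 were lower and 5 did not pass, with a median log2 difference of -0.0212 against 0.00772 over all tested genes. Of all tested genes 58.6% were called in that comparison and 29.6% were called higher. On the Slfn5 side the nearest tested genes, the myosin chaperone gene Unc45b and the ribosome biogenesis gene Nle1, gave log2 -2.21 (called) and -0.03 (not called). Farther out on that side, the called genes were Rad51d (log2 -0.41) and Lig3 (-0.20), both of DNA repair, Rffl (0.82) and Zfp830 (0.38), and Cct6b (0.45) was not called. On the other side Rasl10b (log2 -1.47) and Heatr6 (0.22) were among the called genes, and the clathrin adaptor gene Ap2b1 (-0.02), Mmp28 (-0.15) and Taf15 (-0.03) were not. Leaving out 1 library ended the call of Heatr6 without HD-homo replicate 1 (0.22) or 3 (0.207) and without control replicate 1 (0.244), 2 (0.206) or 3 (0.217). It made Mmp28 called, at -0.457, without HD-homo replicate 3 and brought Rffl to 0.48 without HD-homo replicate 2. The largest differences were in the chemokine genes Ccl5, at 54.1 ± 3.54 CPM in HD-homo cells against 0.0320 ± 0.0311 in control cells and 0.0102 ± 0.0176 in HD-het cells, and Ccl9, at 14.9 CPM against 2.13 and 0.754. Ccl5 passed the filter only through its HD-homo libraries, so its call is no support. The start site of Ccl5 lies 538.7 kb from that of Slfn9. In HD-het against control cells 4 neighbours were higher, 5 lower and 6 did not pass (median log2 0.0792, against 0.0251 over all tested genes). There 65.1% of all tested genes were called and 33.8% were called higher. In HD-homo against HD-het cells 8 neighbours were higher, 4 lower and 3 did not pass (median log2 0.189, against 0.00169). There 71.6% of all tested genes were called and 36.0% were called higher.

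**Figure D4:**
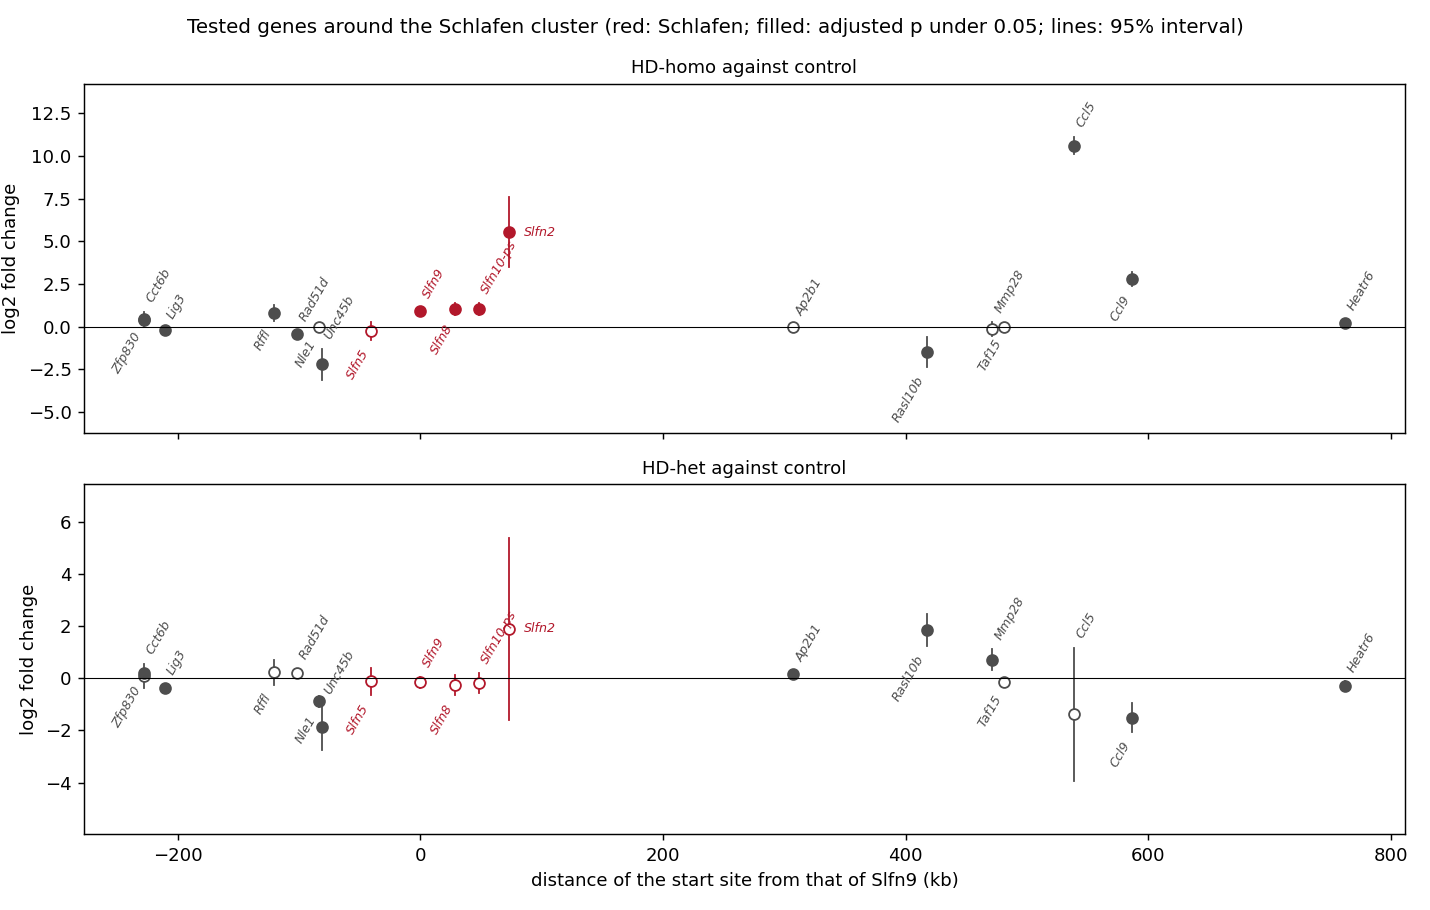
Fitted log2 difference with its 95% interval for tested genes around the cluster, 1 of them not drawn, by distance of the start site from that of Slfn9 in kb; red marks Schlafen genes, filled points have an adjusted p under 0.05, and the Cct6b point lies under that of Zfp830. In HD-homo against control cells called and uncalled genes are interspersed along the region, with Ccl5 at log2 10.59.

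Schlafen genes are usually counted among the targets of interferon, so other genes of that response are given from lists that hold none of the 4 members. These lists were chosen with earlier results of these data known, so their counts are given as a description. Of 48 interferon-stimulated genes 43 were tested, and in HD-homo against control cells 39 were higher, 1 was lower and 3 did not pass, with a median log2 difference of 4.49, or 4.09 with near-empty groups set at the floor. In HD-homo against HD-het cells 40 were higher, 2 lower and 1 did not pass (median log2 2.62). In HD-het against control cells 19 were higher, 4 lower and 20 did not pass (median log2 1.08, or 0.746 with near-empty groups at the floor). Over all tested genes 29.6%, 36.0% and 33.8% were called higher in these comparisons, in the same order. Of the 43 genes, 15 passed the filter only through HD-homo libraries, and all 15 were called higher in both comparisons of HD-homo cells, so the full counts are no support. Of the other 28, 24 were higher and 1 lower in HD-homo against control cells (median log2 3.19), 25 higher and 2 lower in HD-homo against HD-het cells (2.04), and 17 higher and 4 lower in HD-het against control cells (0.971). Of all tested genes that passed without HD-homo libraries, 28.1%, 34.6% and 34.5% were called higher in that order. The fitted differences of Slfn9 (0.91) and Slfn8 (1.03) in HD-homo against control cells were under that list's median, and also under that of the 28 genes. The summed level of the list was 290, 289 and 285 CPM in the control libraries, 315, 322 and 318 CPM in those of HD-het and 839, 840 and 1113 CPM in those of HD-homo, with the RNA-editing enzyme gene Adar the most abundant by the mean over the 9 libraries. In HD-homo cells the membrane protein gene Ifitm3 was above it, at 142.4 against 85.47 CPM.

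At the ends of the list, Oasl1, an oligoadenylate synthetase relative, was at 0 in every control and HD-het library and at 7.79 ± 1.14 CPM in HD-homo cells, at least 82.3-fold higher than a floor of 3 counts per library. Oas1g, an oligoadenylate synthetase, had a ratio of 395 to control cells, with a counting interval of 109 to 3260. Both passed the filter only through HD-homo libraries, so they are given as a description. Ifit2, an antiviral protein that binds RNA, was the 1 gene called lower, at log2 -0.46 (adjusted p = 0.047, edgeR's quasi-likelihood F-test, Benjamini-Hochberg adjusted), with overlapping libraries. It was at 27.56, 28.75 and 28.77 CPM in the control libraries and at 15.73, 28.75 and 16.88 CPM in those of HD-homo. Its call held in 1 of the 9 fits that left out 1 library, at log2 -0.798 without HD-homo replicate 2. It ended at -0.487, -0.456 and -0.456 without control replicates 1 to 3, at -0.466, -0.466 and -0.465 without HD-het replicates 1 to 3, and at -0.308 and -0.344 without HD-homo replicates 1 and 3. The immune GTPase gene Irgm1 gave log2 -0.07 and Adar 0.13, neither called, though Adar was called, at 0.208, without HD-homo replicate 2.

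Of 24 genes for interferon ligands, receptors and signalling 17 were tested, and 11 were higher, 3 lower and 3 not called in HD-homo against control cells (median log2 0.446), 9, 5 and 3 in HD-het against control cells (0.229), and 10, 3 and 4 in HD-homo against HD-het cells (0.848). Over all tested genes 29.6%, 33.8% and 36.0% were called higher in these comparisons, in the same order. The 7 ligand genes Ifnb1, Ifna1, Ifna2, Ifna4, Ifnl2, Ifnl3 and Ifng had 0 counts in all 9 libraries. Usp18, a brake on the interferon receptor (log2 7.89 in HD-homo against control cells), passed the filter only through HD-homo libraries, so its call is no support. Of the other 16 tested genes 10 were higher and 3 lower in that comparison (median log2 0.44), where 28.1% of all tested genes that passed without HD-homo libraries were called higher. The largest differences among the 16 were in the transcription factors Irf7 (6.92) and Irf9 (2.29), and the lowest were in the cytokine signalling inhibitor Socs3 (-0.51), Irf3 (-0.44) and the receptor gene Ifngr1 (-0.41), all called. Among other genes of the same response, the DNA sensor gene Cgas was at 0.0640, 2.62 and 46.9 CPM in control, then HD-het, then HD-homo cells, and the chemokine gene Cxcl10 at 0.275, 0.576 and 68.2 CPM. Cgas and Irf7 were called higher in HD-het than in control cells, a comparison in which no member was called, though a difference between these genes and the members was not tested.

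Antiviral genes that, like some Schlafen proteins, act on RNA or translation numbered 13, of which 11 were tested and 8 also stood in the list of interferon-stimulated genes. In HD-homo against control cells 10 were higher and 1 was not called (median log2 2.3), with Oas1a (8.31), Ifit1 (8.05) and the translation-blocking Samd9l (5.57) the highest. Among the smallest differences were those of Adar (0.13) and the kinase gene Eif2ak2 (0.79). In HD-het against control cells 2 were higher, 3 lower and 6 not called (median log2 -0.129), and in HD-homo against HD-het cells 10 were higher and 1 not called (2.49). Of the 11, 4 passed the filter only through HD-homo libraries and were called higher in both comparisons of those cells, Oas1a and Ifit1 among them, so the full counts are no support. Of the other 7, 6 were higher and 1 was not called, both against control cells (median log2 1.4) and against HD-het cells (1.43). Among all tested genes that passed without HD-homo libraries, 28.1% and 34.6% were called higher in these comparisons. In HD-het against control cells 65.1% of all tested genes were called in either direction.

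**Figure D5:**
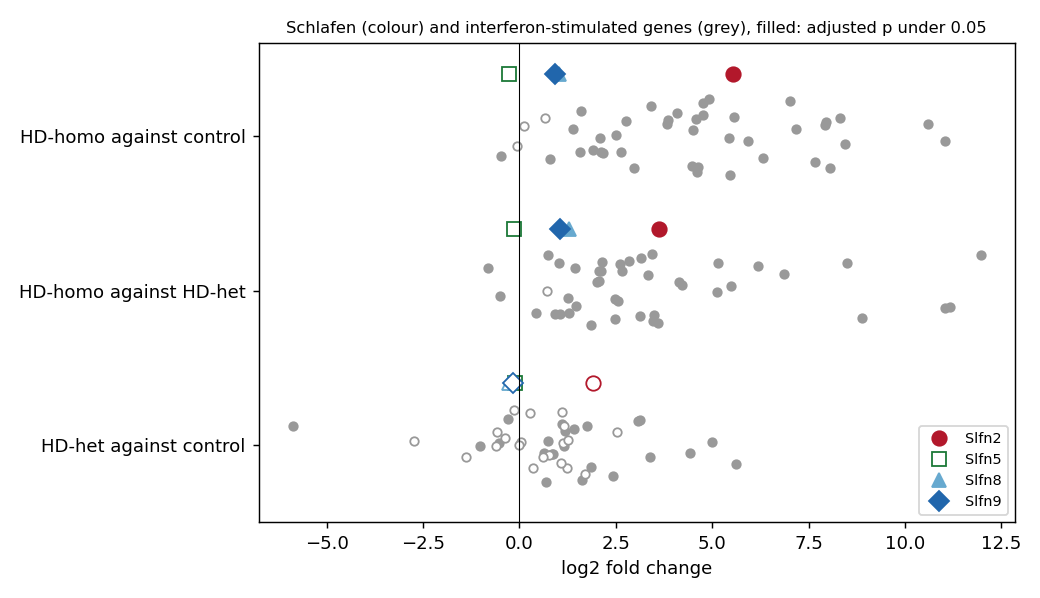
Fitted log2 difference of the 4 members (coloured symbols) and of the 43 tested interferon-stimulated genes (grey points, spread vertically to be seen) in each comparison; filled symbols have an adjusted p under 0.05. In HD-homo against control cells 39 of the grey points are called higher, and Slfn8 and Slfn9 lie near 1 while Slfn2 lies at 5.53.

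The genes whose levels were most like those of a member were found by Pearson's r of log2 CPM over the 9 libraries, as a description, ranked among the 12016 tested genes with a mean of at least 1 CPM. Slfn2 (0.24 CPM) and Slfn5 (0.91 CPM) were themselves under that limit. For Slfn9 they were the DNA polymerase gene Pola1 (r = 0.992), Acer3 (0.988), Slfn8 (0.987), Eif2ak2 (0.985) and Slfn10-ps (0.984). For Slfn8 they were Slfn10-ps (0.996), Slfn9 (0.987), the homeobox gene Dlx1 (0.985), Pola1 (0.981) and Emc2 (0.981). Eif2ak2, the kinase that halts translation on sensing double-stranded RNA, was at 47.4, 48.4 and 49.1 CPM in the control libraries, 44.4, 46.0 and 42.1 CPM in those of HD-het and 78.6, 83.3 and 89.0 CPM in those of HD-homo, the same order of lines as Slfn9. For Slfn2 they were Smim7 (0.982), Mcm8 (0.975), Sned1 (0.973), Pxylp1 (0.973) and Ckap4 (0.97), and for Slfn5 they were Ubn1 (0.948), Fam212b (0.93), Inka2 (0.915), Adgrl2 (0.915) and Wasl (0.894). Fam212b is the older symbol of Inka2, and the table holds both. The 9 libraries are 3 lines with 3 libraries each, and the HD-homo libraries lie apart for Slfn2, Slfn8 and Slfn9, so a high r there mostly describes the same order of lines.

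Schlafen genes are known for restraining growth, and of 18 genes of proliferation and quiescence, all tested, 3 were higher, 5 lower and 10 not called in HD-homo against control cells (median log2 -0.0678). The counts were 5, 8 and 5 in HD-het against control cells (-0.0701) and 7, 7 and 4 in HD-homo against HD-het cells (0.144). Over all tested genes 58.6%, 65.1% and 71.6% were called in either direction in these comparisons, in the same order. The proliferation marker Mki67 (log2 0.49), Top2a (0.28) and the cyclin gene Ccnb1 (0.23) had the largest differences between HD-homo and control cells, and the cyclin gene Ccnd1 (-1.49), the transcription factor gene Klf4 (-0.78) and the inhibitor gene Cdkn2b (-0.68) the lowest. Of these, Top2a was no longer called without control replicate 3 (0.236).

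Lymphocytes express Slfn2 strongly, so markers of other cells were counted beside it. Of 10 T, B and NK cell markers 1 was tested, the kinase gene Lck (log2 0.31 in HD-homo against control cells, -0.76 in HD-het against control cells, neither called, and 1.07 in HD-homo against HD-het cells, called). The last call ended without HD-het replicate 3 (0.828), and HD-het against control cells was called without HD-het replicate 2 (-1.05). The defining markers Cd3e, Cd3g, Ms4a1 and Nkg7 had 0 counts in every library. The list summed to 0.995, 0.833 and 0.980 CPM in the control libraries, 0.649, 0.945 and 0.988 CPM in those of HD-het and 0.828, 0.900 and 0.984 CPM in those of HD-homo, with Lck the most abundant by the mean over the 9 libraries. In HD-het cells Lck, at 0.286 CPM, was under Ptprc. The leukocyte marker Ptprc was at 0.189, 0.318 and 0.0617 CPM in control, then HD-het, then HD-homo cells. Of 12 macrophage and microglia markers 5 were tested, and in HD-homo against control cells Csf1r (log2 1.89) and Cd14 (1.25) were higher, P2ry12 (-3.16) was lower, and Cd68 (0.43) and Tmem119 (-0.19) were not called, while Adgre1, Aif1 and Tyrobp had 0 counts everywhere. That list summed to 21.7, 20.1 and 19.2 CPM in the control libraries, 50.7, 47.4 and 59.8 CPM in those of HD-het and 27.9, 26.4 and 24.5 CPM in those of HD-homo, with Tmem119 the most abundant. Without Tmem119 it summed to 6.75, 6.78 and 8.08 CPM in the control libraries, 6.12, 5.58 and 8.51 CPM in those of HD-het and 15.6, 14.9 and 13.7 CPM in those of HD-homo. Cd14 was at 4.22, 2.17 and 10.04 CPM and Csf1r at 0.544, 0.666 and 2.04 CPM in control, then HD-het, then HD-homo cells. In HD-homo against HD-het cells Cd14 (log2 2.21) and Csf1r (1.59) were called higher and Tmem119 (-1.99) lower, and Cd68 and P2ry12 were not called. Leaving out 1 library made Cd68 called against control cells without HD-het replicate 3 (0.432) and against HD-het cells without HD-het replicate 1 (-0.666) or 2 (-0.594), Tmem119 called against control cells without control replicate 3 (-0.294) and P2ry12 called against HD-het cells without HD-homo replicate 2 (-2.9). The part of such markers in the Slfn2 difference was not tested.

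The labelled striatal origin was read against neuronal markers. Of 11 markers of striatal projection neurons 6 were tested in HD-homo against control cells, where Foxp2 (log2 2.15), Penk (0.90) and Foxp1 (0.84) were higher and Adora2a (-0.80), Pde10a (-0.41) and Bcl11b (-1.14) were not called. Foxp2 passed the filter only through HD-homo libraries, with 9, 13 and 47 counts in control, then HD-het, then HD-homo cells, so its call is no support, and it was not tested without HD-homo replicate 2. Penk was no longer called without control replicate 1 (0.764) or 2 (0.954) or HD-homo replicate 3 (0.547), and Pde10a was called without control replicate 3 (-0.584). Compared with HD-het cells, Foxp2 (1.72), Penk (2.34) and Foxp1 (0.56) were higher in HD-homo cells, Pde10a (-1.68) and Bcl11b (-2.865) lower and Adora2a (-0.72) not called. Foxp1 was the most abundant at 93.8, 114 and 168 CPM in control, then HD-het, then HD-homo cells. The dopamine receptor genes that define these neurons were absent or nearly so, Drd1 with 0 counts and Drd2 with 1 count over the 9 libraries. Other untested markers, named after their values were seen, were the projection neuron gene Ppp1r1b, with 7, 3 and 36 counts in control, then HD-het, then HD-homo cells and so highest in HD-homo cells like Slfn2, Slfn8 and Slfn9, and Tac1 with 2, 13 and 1. Of 7 pan-neuronal markers 3 were tested, with Stmn2 (log2 -4.28) lower and Map2 (-0.08), the most abundant, and Tubb3 (-0.17) not called, though Tubb3 was called without HD-homo replicate 3 (-0.212). Set against HD-het cells, Tubb3 (-0.43) was lower in HD-homo cells, and Stmn2 (0.03) and Map2 (-0.02) were not called. Of the untested, Rbfox3 had 5 counts, Syt1 3, Snap25 2 and Dcx 2 over the 9 libraries. Of 6 mesenchymal markers, all tested, Col1a2 (log2 4.35), Col1a1 (0.78) and Pdgfrb (0.65) were higher, Acta2 (-4.63) and Vim (-0.34) were lower and Col3a1 (0.17) was not called. Between HD-homo and HD-het cells, Col1a2 (8.89) was higher in HD-homo cells, Col1a1 (-0.75), Pdgfrb (-1.31), Col3a1 (-0.86) and Acta2 (-5.85) were lower and Vim (-0.10) was not called (median log2 -0.8), and in HD-het against control cells 4 were higher and 2 lower (1.12). The list summed to between 10310 and 19230 CPM per library. Vim was the most abundant in control cells (5383 CPM) and in HD-homo cells (4264 CPM), and Col1a1 in HD-het cells (7097 CPM).

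Of 7 glial markers 4 were tested and all 4 were higher in HD-homo cells than in control cells (median log2 3.04) and than in HD-het cells (3.92), though Mbp and Sox10 passed the filter only through HD-homo libraries. Against control cells they were the growth factor receptor gene Pdgfra (log2 5.87), Mbp (3.37), Slc1a3 (2.70) and Sox10 (2.32). Over all tested genes 29.6% were called higher in HD-homo against control cells and 36.0% in HD-homo against HD-het cells. The list summed to 8.24, 8.42 and 6.90 CPM in the control libraries, 4.71, 4.91 and 6.65 CPM in those of HD-het and 324, 328 and 317 CPM in those of HD-homo, mostly from Pdgfra, while the untested markers did not follow: the astrocyte marker Gfap had 16, 15 and 4 counts in control, then HD-het, then HD-homo cells, Olig2 had 2, 0 and 2, and the astrocyte marker Aqp4 had 1 over the 9 libraries. The sums were highest in HD-homo cells, as were Slfn2, Slfn8 and Slfn9, and their part in the Schlafen differences was not tested.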

How the data were processed

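The values were raw whole-number counts per gene symbol in the table deposited by the authors, whose notes name cutadapt, Bowtie 1.1.2, RSEM 1.3.0 and DESeq2 with builds GRCm38.p5 and mm10, without saying which step made the counts. Genes passing edgeR's filterByExpr (minimum count 10) were scaled by TMM and fitted over all 9 libraries in R 4.3.3 with edgeR 4.0.16, with no term besides line. Differences were tested, 2-sided, by edgeR's quasi-likelihood F-test, Benjamini-Hochberg adjusted over the 13508 tested genes of each comparison. DESeq2 1.42.0 was run as an alternative. Positions and exon lengths came from GENCODE M21 and promoters from RefSeq. Reported by name were the members, other Schlafen genes, genes within 0.5 Mb of the cluster, the 5 genes most like each member (of those with a mean of at least 1 CPM), the 3 highest and 3 lowest tested genes of each list (all of a list with at most 10 tested), Htt, Cgas, Ccl5, Cxcl10 and Irf7, with a few of these left out. The members and lists were chosen with earlier results of these data known. Equal replicate numbers did not pair libraries across lines.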

Additional observations from a re-analysis of the deposited data

How the results depend on the processing

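Each member's difference was recomputed under 18 alternatives, or 19 for Slfn8 and Slfn9, of which 9 leave out 1 library. They changed the scaling, the filter, the prior count, the libraries fitted and the tool, and one, without replicate 3 of every line, was added after seeing the data, as was leaving out 1 library for the named genes of the lists and the region, given beside them. Of the 12 member results, 10 kept their direction and their side of the threshold under all alternatives that gave a value. For Slfn2, which passed the filter only through HD-homo libraries, this is no support. Fitting only HD-het and control cells gave no value for Slfn2, which did not pass the filter there, leaving 17. The other 2 results were both of Slfn5 and not called. In HD-het against control cells the log2 difference ran from -0.2498 to 0.02544 when 1 library was left out (0.02544 without control replicate 3) and was 0.0868 without replicate 3 of every line. In HD-homo against HD-het cells it ran from -0.2544 to 0.03719 when 1 library was left out (0.03719 without HD-homo replicate 1). Its lowest value over all alternatives was -0.3075. The alternatives that turned the sign use fewer samples. In HD-homo against control cells the log2 difference over all alternatives ran from 3.357 to 7.486 for Slfn2 and -0.3968 to -0.07677 for Slfn5. For Slfn8 it ran from 0.8617 to 1.182 and for Slfn9 from 0.8438 to 1.023. A replicate block gave 5.494 for Slfn2, 1.02 for Slfn8 and 0.907 for Slfn9 and changed no call among the members. Other scalings moved the median of all genes by at most 0.0294 log2. Depth limits Slfn2 most, with 1 count in control cells.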
